A study of Rattus norvegicus with 105 samples.

Results

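The genes described here encode the machinery that docks, primes, fuses and recycles synaptic vesicles at nerve terminals, and 36 of them were listed by name. In the frontal cortex of rats, 35 had at least 1 probe set carrying their symbol alone, out of 14217 gene symbols on the array; the calcium-binding protein gene Doc2a had none. Among several probe sets of a gene, the one whose signal averaged highest across every array stands for it here, whatever the groups. The 36 genes held 52 such probe sets, and 13 genes had more than 1.

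Total RNA of the frontal cortex was read on Affymetrix arrays in 3 experiments with 11 groups. The first compared 12 arrays of rats whose ventral hippocampus had been lesioned with 10 arrays of a sham group. The second held 11 arrays from rats whose ventral hippocampus was disrupted with tetrodotoxin (TTX), a blocker of voltage-gated sodium channels, and 9 arrays from its own sham group. The third, of drugs given chronically, held 9 vehicle arrays, then 10, 9 and 8 arrays of rats on clozapine from the low to the high level, and 9 arrays per level of haloperidol. Clozapine and haloperidol are antipsychotic drugs; haloperidol is a strong blocker of dopamine D2 receptors, and clozapine binds many receptors and blocks D2 more weakly. The labels give dose levels as words only and give no strain, sex, age, time of surgery or route of dosing for any group, and they do not tie each array to its own animal. P-values therefore rest on the spread among arrays, which may be technical in part.

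A synaptic vesicle filled with transmitter is tethered at the active zone by Rab3, RIM and large scaffold proteins. It fuses when the vesicle protein VAMP and the membrane proteins syntaxin and SNAP-25 zip together, with synaptotagmin sensing calcium and complexin holding and then releasing the complex. NSF and its SNAP adaptors take the spent complex apart, and dynamin, amphiphysin, synaptojanin and endophilin retrieve the membrane. Most of these messenger RNAs lie in the cell bodies of cortical neurons, so frontal cortex RNA reports on the neurons of that cortex and not on the hippocampal axons that end there.

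The promoters of a few of these genes are shown first, and they differ in the motifs they hold. Whether a motif goes with the variation of these genes across arrays was not tested. RefSeq on GRCr8 gave a promoter for 31 of the 36 genes, and the 250 bases before the gene start were searched on both strands. The cyclic AMP response element TGACGTCA was present in 4 of 31 (12.9%: Napa, Sh3gl2, Syn1 and Vamp1), against 1.89% of 21842 protein-coding promoters. An Egr site, GCGGGGGCG or GCGTGGGCG, was present in 7 (22.6%: Nsf, Sh3gl2, Syn1, Syn2, Syp, Syt1 and Vamp2), against 3.62% of all. A GC box, GGGCGG, was present in 21 (67.7%), against 38.9%, and the median GC content was 64.8% in these promoters against 54% in all. All 3 motifs are rich in G and C or hold a CpG, and the share expected at equal GC content was not computed. The promoters below are those of Syn1 and Syp, each of which is in a pair of genes that varied together, and of Cplx2 and Rims1, the members with the smallest p-values in the lesion and haloperidol comparisons. Each is 250 bases, printed 5′ to 3′ on the strand of the gene, with matches to these motifs, on either strand, in capitals. They lie at chrX:3725495-3725744 (plus strand, Syn1), chrX:17536450-17536699 (minus, Syp), chr17:10236754-10237003 (minus, Cplx2) and chr9:32692773-32693022 (minus, Rims1).

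Syn1: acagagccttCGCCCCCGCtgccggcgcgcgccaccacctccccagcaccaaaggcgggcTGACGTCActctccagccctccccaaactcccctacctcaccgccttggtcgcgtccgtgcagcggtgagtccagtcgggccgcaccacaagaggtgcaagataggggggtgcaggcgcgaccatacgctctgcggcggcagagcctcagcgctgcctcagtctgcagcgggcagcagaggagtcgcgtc
Syp: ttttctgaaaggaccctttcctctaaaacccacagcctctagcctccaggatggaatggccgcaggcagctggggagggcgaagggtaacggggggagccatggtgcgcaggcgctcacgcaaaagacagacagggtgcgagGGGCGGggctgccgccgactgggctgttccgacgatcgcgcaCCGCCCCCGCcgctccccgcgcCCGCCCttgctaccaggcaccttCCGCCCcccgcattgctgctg
Cplx2: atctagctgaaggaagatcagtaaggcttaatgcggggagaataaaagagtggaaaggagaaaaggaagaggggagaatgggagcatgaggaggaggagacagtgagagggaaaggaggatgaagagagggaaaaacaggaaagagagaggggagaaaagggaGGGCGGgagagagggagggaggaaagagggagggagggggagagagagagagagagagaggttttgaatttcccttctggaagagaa
Rims1: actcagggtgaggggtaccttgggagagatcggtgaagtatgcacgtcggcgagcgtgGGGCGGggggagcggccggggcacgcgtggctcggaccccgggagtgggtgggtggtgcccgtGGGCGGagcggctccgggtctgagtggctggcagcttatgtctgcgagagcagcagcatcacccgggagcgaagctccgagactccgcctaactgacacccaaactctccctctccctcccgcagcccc

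In Syn1 the Egr site began 240 bases before the gene start and the cyclic AMP response element 190 bases before it. Syp held 1 Egr site, which overlaps a GC box, and 3 further GC boxes. Cplx2 held a single GC box, and Rims1 held 2; neither had an Egr site or a cyclic AMP response element in this window.

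Values below are log2 intensities after quantile normalisation inside an experiment and a floor of 32, and the 60% of probe sets with the highest mean were tested, 18625 in each experiment. Of the 35 genes with a probe set, 32 passed this filter. Syt2, a fast calcium sensor, Syn3, a synapsin, and Sv2c, a vesicle glycoprotein, did not, with group means of 7.64 to 8.46, 7.56 to 8.28 and 6.72 to 7.65 in log2 intensity and some arrays at the floor. Log2 intensities of different probe sets cannot be set against each other, so all values below compare arrays for 1 probe set.

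No member passed an adjusted p of 0.05 in any of 12 comparisons by limma with Benjamini-Hochberg adjustment over all 18625 probe sets. The share of all probe sets past this threshold was 0% for lesion, TTX and clozapine, 0.0161% for haloperidol and 1.2% for clozapine against haloperidol. At an unadjusted p under 0.05, 2 of 32 members (6.25%) were found for lesion against 7.81% of all probe sets, 0 for TTX against 4.63%, 0 for clozapine against 3.81%, and 2 (6.25%) for haloperidol against 6.73%. Clozapine against haloperidol gave 3 members (9.38%), against 15.2% of all probe sets. With counts of 0 to 3 these shares were near the background. With the run of sample numbers as a term, clozapine against haloperidol gave 7 members (21.9%) beside 23.9% of all probe sets. Runs are stretches of equal size into which the consecutive sample numbers of an experiment were cut here. No label or gap marks their limits. The groups overlapped for all 32 members in every comparison of 2 groups, drugs or dose levels, as they did for at least 99.97% of all probe sets.

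The differences were small, and their intervals were narrow for most members. A size under 0.1 on the log2 scale was found for 25 of 32 members in lesion and in TTX, 24 in clozapine, and 26 in haloperidol and in clozapine against haloperidol. The whole 95% interval lay within 0.25 of 0 for 18 members in lesion, 23 in TTX, 22 in clozapine, 23 in haloperidol and 25 in clozapine against haloperidol. It lay within 0.5 for 29, 31, 30, 31 and all 32 members in the same order of comparisons. The members whose interval passed 0.5 were Rims2, Rph3a and Syt11 in lesion, Syt11 in TTX, Rims2 and Rph3a in clozapine and Rph3a in haloperidol.

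**Figure D1:**
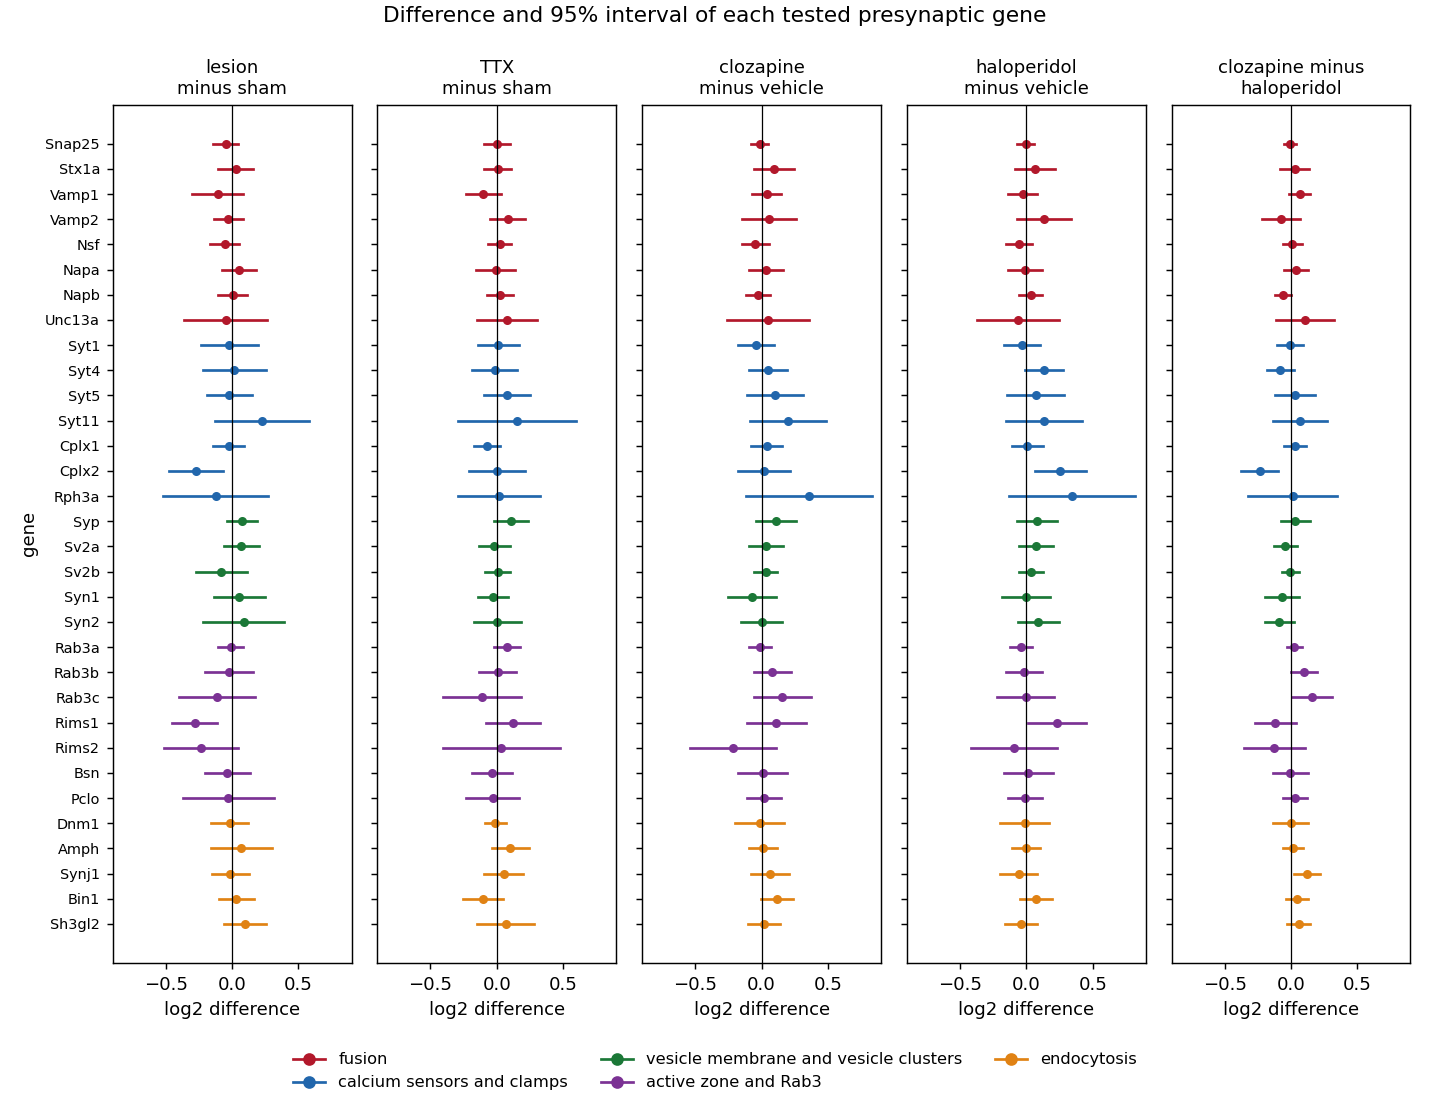
Difference in log2 intensity (points) with its 95% interval (lines) for the 32 tested presynaptic genes, by role, in 5 comparisons named above the panels. Most points lie within 0.1 of 0; Cplx2 and Rims1 lie to the left in lesion and to the right in haloperidol, none past the adjusted threshold.

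Fusion machinery comes first among the roles. Snap25, the plasma membrane SNARE, ranked between 7 and 23 in brightness on every array, so quantile normalisation gave it one of a few top values: 10 distinct values on 22 lesion-experiment arrays and 13 on 63 neuroleptic arrays. Its residual SD was 0.0844 and 0.0686 in these arrays and 0.0857 in TTX-experiment arrays. In the deposited values, which were not quantile-normalised here, it was 0.204, 0.123 and 0.0927 in the same order. How far the ceiling lowered the SD was not tested. Its lowest, median and highest values were 16.50, 16.67 and 16.79 in lesion arrays against 16.63, 16.68 and 16.88 in sham arrays. They were 16.67, 16.82 and 16.99 in TTX arrays against 16.72, 16.80 and 16.99 in their sham arrays. The Snap25 difference was -0.05 ± 0.04 (SE; 95% interval -0.14 to 0.04) for lesion, 0.00 ± 0.05 for TTX, -0.01 ± 0.03 for clozapine and 0.00 ± 0.03 for haloperidol. The groups overlapped in all 4 cases, under the same ceiling.

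The other 7 fusion members were Stx1a (syntaxin 1A), the vesicle SNAREs Vamp1 and Vamp2, the ATPase Nsf, its adaptors Napa and Napb, and the priming factor Unc13a. The 8 fusion members together ran from -0.11 to 0.05 in lesion (3 positive, 5 negative) and from -0.10 to 0.08 in TTX (6 and 2). They ran from -0.05 to 0.09 in clozapine (5 and 3) and from -0.06 to 0.13 in haloperidol (3 and 5). Vamp1 was among the 5 members with the smallest p for TTX. Its values were 14.10, 14.34 and 14.59 (lowest, median, highest) in 11 TTX arrays against 14.36, 14.41 and 14.67 in 9 sham arrays, a difference of -0.10 ± 0.06 (adjusted p = 0.999, limma) with 8 of 11 TTX arrays below the sham mean. Vamp2 stood at 14.25, 14.74 and 15.26 in 27 haloperidol arrays against 14.34, 14.53 and 15.09 in 9 vehicle arrays (0.13 ± 0.10, adjusted p = 0.908). TTX arrays of Vamp1 reached below every sham array and overlapped them above that, while the Vamp2 groups overlapped over most of their range.

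Calcium sensors and clamps held the member with an unadjusted p under 0.05 in the most comparisons, Cplx2, which encodes complexin 2, a small protein that binds the assembled SNARE complex. In lesion arrays it ran from 12.64 to 13.62 with a median of 13.02, against 12.98 to 13.61 with a median of 13.26 in sham arrays. All but 1 of the 12 lesion arrays lay below the sham mean, yet the ranges overlapped. The means were 13.01 ± 0.25 (SD, n = 12) in lesion arrays and 13.28 ± 0.22 (n = 10) in sham arrays. The difference was -0.27 ± 0.10 (95% interval -0.47 to -0.07, limma adjusted p = 0.588). It was -0.19 in the run of lower sample numbers and -0.35 in the run of higher ones.

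In TTX arrays Cplx2 ran from 12.93 to 13.56 with a median of 13.25, against 12.84 to 13.66 with a median of 13.29 in their sham arrays. The difference was 0.00 ± 0.10 (95% interval -0.21 to 0.21), so a shift as large as that in lesion arrays lay outside this interval. The lesion difference minus the TTX difference was itself tested, at -0.27 ± 0.14 (95% interval -0.56 to 0.02, adjusted p = 0.776), so the 2 surgical effects on Cplx2 were not shown to differ.

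Under the drugs Cplx2 medians were 13.07 in vehicle, 13.21, 13.01 and 12.90 in low, medium and high clozapine, and 13.31, 13.30 and 13.31 in low, medium and high haloperidol arrays. Ranges were 12.66 to 13.32 in vehicle, 12.68 to 13.59 over all clozapine and 12.22 to 13.76 over all haloperidol arrays. The lowest haloperidol value belonged to 1 array at the high level (replicate 6), while the lowest arrays at the low and medium levels stood at 13.08 and 13.03. Over its 3 levels haloperidol differed from vehicle by 0.26 ± 0.10 (95% interval 0.06 to 0.45, adjusted p = 0.646), with 24 of 27 arrays above the vehicle mean. By level the haloperidol difference was 0.27 ± 0.12, 0.33 ± 0.12 and 0.17 ± 0.12. By level the clozapine difference was 0.16 ± 0.12, -0.02 ± 0.12 and -0.08 ± 0.12.

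Set directly against each other, the drugs gave the smallest adjusted p of any member. Cplx2 averaged 13.06 ± 0.24 (SD, n = 27) in clozapine arrays and 13.29 ± 0.29 (n = 27) in haloperidol arrays, a difference of -0.24 ± 0.07 (95% interval -0.38 to -0.10, adjusted p = 0.0630, limma). Of the clozapine arrays 21 of 27 lay below the haloperidol mean. The 3 runs of sample numbers gave -0.17, -0.29 and -0.30. The call depended on the fit: with the run as a term the value was -0.24 ± 0.07 and the adjusted p 0.0254, which passed in a fit where 7.18% of all probe sets did, and without the arrays of low mean correlation the value was -0.21 and the adjusted p 0.111. Leaving out 1 array at a time, the adjusted p ran from 0.0133 to 0.105, and it passed in 5 of 54 cases. Without the low array at high haloperidol (replicate 6) the difference was -0.28 and the adjusted p 0.0133. The other 4 cases were without high clozapine replicate 2 (0.0351), medium clozapine replicate 1 (0.0464) and low clozapine replicates 5 (0.0467) and 9 (0.0482). Whether Cplx2 counts as called thus turns on single arrays, while the value stayed between -0.28 and -0.21.

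**Figure D2:**
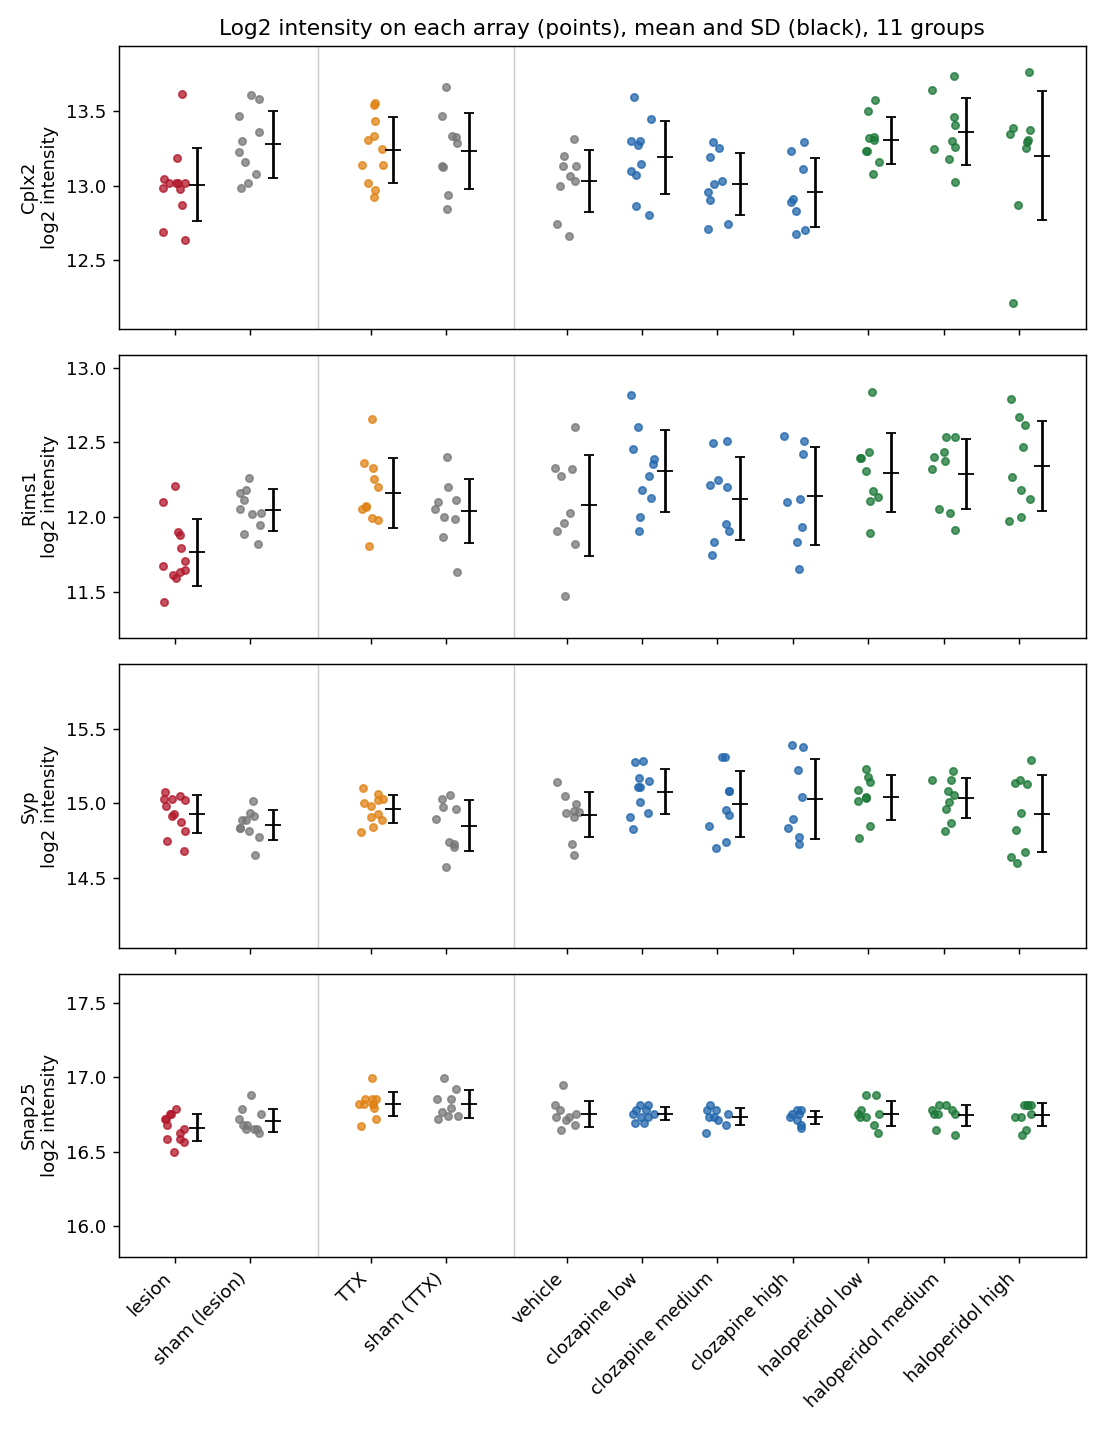
Log2 intensity of Cplx2, Rims1, Syp and Snap25 on each array (points) in 11 groups, with the group mean and SD in black beside them; every panel spans the same log2 range, and vertical lines part the 3 experiments. Lesion arrays of Cplx2 and Rims1 sit lower than their sham arrays with overlap, and Snap25, held near the ceiling of the normalised values, is nearly flat.

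Among the other sensors and clamps, Syt1 is the main fast calcium sensor, Syt4 and Syt11 are synaptotagmins with weak or no calcium binding, Syt5 is a calcium-binding one, Cplx1 is complexin 1 and Rph3a (rabphilin) binds Rab3. Cplx1 was at 15.38, 15.52 and 15.76 in TTX arrays against 15.55, 15.61 and 15.70 in sham arrays, a difference of -0.08 ± 0.05 (adjusted p = 0.999). The TTX arrays were the more spread of the 2 groups. Syt11 gave the largest positive lesion difference, with 10.59, 11.18 and 11.95 in lesion arrays against 9.92, 11.03 and 11.56 in sham arrays (0.22 ± 0.17, adjusted p = 0.787). The sham minimum of Syt11 was an isolated low array (replicate 7), without which the difference was 0.10. For clozapine Syt11 differed by 0.20 ± 0.14 (adjusted p = 0.977). Syt4 differed by 0.13 ± 0.07 for haloperidol (adjusted p = 0.793), with 14.06, 14.36 and 14.76 in haloperidol arrays against 14.01, 14.22 and 14.46 in vehicle arrays.

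Rph3a had the largest point differences of all members under both drugs and also the widest intervals. It ran from 8.84 to 11.19 with a median of 9.82 in clozapine arrays and from 8.49 to 10.61 with a median of 9.86 in haloperidol arrays, against 9.01 to 10.21 with a median of 9.36 in vehicle arrays. The vehicle range lay inside both drug ranges. The differences were 0.36 ± 0.24 (95% interval -0.12 to 0.83, adjusted p = 0.977) for clozapine and 0.34 ± 0.24 (-0.13 to 0.82, adjusted p = 0.881) for haloperidol, which share the vehicle arrays. In the 3 runs they were 0.40, 0.66 and 0.03 for clozapine and 0.69, 0.63 and -0.01 for haloperidol.

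The vesicle membrane and cluster members were Syp (synaptophysin, an abundant vesicle membrane protein), the SV2 glycoproteins Sv2a and Sv2b, and the synapsins Syn1 and Syn2, which tether vesicles to each other. In lesion 4 of these 5 were positive, from 0.05 to 0.09, and Sv2b was at -0.08. Without lesion replicate 7 the same 4 ran from 0.06 to 0.20 and Sv2b was at -0.01. Syp stood at 14.68, 14.96 and 15.07 in lesion arrays against 14.65, 14.86 and 15.01 in sham arrays (0.07 ± 0.05, adjusted p = 0.776). It stood at 14.81, 14.98 and 15.10 in TTX arrays against 14.57, 14.89 and 15.05 in their sham arrays (0.11 ± 0.06, adjusted p = 0.999), with 9 of 11 TTX arrays above the sham mean. For clozapine Syp was at 14.70, 15.04 and 15.39 against 14.65, 14.94 and 15.14 in vehicle arrays (0.11 ± 0.08, adjusted p = 0.977). The Syp difference was positive in all 4 comparisons and past the threshold in none, and the drug comparisons share their vehicle arrays.

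The 7 tested active zone members are the vesicle GTPases Rab3a, Rab3b and Rab3c, the RIM scaffolds Rims1 and Rims2, which tie Rab3 and calcium channels to the release site, and the giant scaffolds Bsn (bassoon) and Pclo (piccolo). Their lesion differences ran from -0.28 to -0.01 with a median of -0.03, beside a median of 0.00 over all probe sets, but the shared sign rested on 1 array. Without lesion replicate 7, an array of low mean correlation, 3 were negative (Rims1 -0.31, Rims2 -0.24 and Rab3c -0.13) and 4 were positive (Pclo 0.12, Bsn 0.02, Rab3b 0.01 and Rab3a 0.00), with a median of 0.00. The second Pclo probe set was at 0.05 ± 0.11 with all arrays. Of the 7, only Rims1 had an unadjusted p under 0.05. In TTX the same genes divided into 4 positive and 3 negative, with a median of 0.01.

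Rims1 ran from 11.43 to 12.21 with a median of 11.69 in lesion arrays, against 11.82 to 12.26 with a median of 12.04 in sham arrays. Of the 12 lesion arrays 10 lay below the sham mean, and the 2 others lay within the sham range. The means were 11.76 ± 0.22 (SD, n = 12) and 12.05 ± 0.14 (n = 10), a difference of -0.28 ± 0.08 (95% interval -0.45 to -0.12, limma adjusted p = 0.506). The run of lower sample numbers gave -0.46 and the run of higher ones -0.10, so most of the difference came from 1 run. In TTX arrays Rims1 ran from 11.80 to 12.66 with a median of 12.07, against 11.63 to 12.40 with a median of 12.06 (0.12 ± 0.10, adjusted p = 0.999). The lesion difference minus the TTX difference was -0.40 ± 0.13 (95% interval -0.66 to -0.15, adjusted p = 0.709), the largest in size among the members. In that comparison 1 member (3.12%) had an unadjusted p under 0.05 against 6.34% of all probe sets, and 0% of all probe sets passed the adjusted threshold. After Rims1 and Cplx2, given above, the next members by p were Bin1 at 0.14 ± 0.10, Rab3a at -0.08 ± 0.06 and Vamp2 at -0.11 ± 0.08, with adjusted p-values of 0.861, 0.866 and 0.866.

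Under haloperidol Rims1 ran from 11.89 to 12.84 with a median of 12.32, against 11.47 to 12.60 with a median of 12.03 in vehicle arrays. The difference was 0.23 ± 0.11 (95% interval 0.01 to 0.45, adjusted p = 0.719), with 21 of 27 arrays above the vehicle mean and 0.46, 0.23 and 0.12 in the 3 runs. By level it was 0.22, 0.21 and 0.26 under haloperidol and 0.23, 0.04 and 0.06 under clozapine, each ± 0.13 or 0.14. Rims2 was lower in lesion arrays by its point estimate, at 9.94, 10.70 and 11.47 against 10.63, 10.86 and 11.59 in sham arrays (-0.23 ± 0.13, adjusted p = 0.705). Both runs had the same sign for Rims2, at -0.21 and -0.25.

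The Rab3 genes showed small differences. Rab3a stood at 15.20, 15.30 and 15.40 in TTX arrays against 15.02, 15.23 and 15.36 in sham arrays (0.07 ± 0.05, adjusted p = 0.999). Rab3c ran from 9.38 to 10.22 with a median of 9.94 in clozapine arrays against 8.67 to 10.40 with a median of 9.83 in haloperidol arrays (0.16 ± 0.08, adjusted p = 0.302). Its runs gave 0.02, 0.18 and 0.24. Rab3b differed between the same arrays by 0.10 ± 0.05 (adjusted p = 0.333), with 0.00, 0.19 and 0.12 in the runs. Clozapine arrays thus lay higher on average for both genes, with overlap and no call.

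The endocytosis members were Dnm1 (dynamin 1, which cuts vesicles from the membrane), Amph and Bin1 (amphiphysins, which bend it), Synj1 (synaptojanin 1, a lipid phosphatase that helps to strip the clathrin coat) and Sh3gl2 (endophilin A1, which recruits synaptojanin and dynamin). Their lesion differences ran from -0.02 to 0.10 and their TTX differences from -0.10 to 0.10. Amph was at 12.36, 12.47 and 12.61 in TTX arrays against 12.04, 12.41 and 12.62 in sham arrays (0.10 ± 0.07, adjusted p = 0.999). Bin1 was the member with the smallest p for clozapine, at 13.02, 13.37 and 13.71 in clozapine arrays against 12.92, 13.30 and 13.39 in vehicle arrays. The difference was 0.12 ± 0.06 (95% interval 0.00 to 0.24, adjusted p = 0.977), with 18 of 27 arrays above the vehicle mean. By level it was 0.06, 0.12 and 0.17 from low to high clozapine, each ± 0.07 or 0.08, and the trend was not tested. The lowest vehicle array of Bin1 (replicate 8) stood apart from the other 8, and without it the difference was 0.08 ± 0.06 (adjusted p = 0.999).

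Synj1 ran from 14.20 to 15.05 with a median of 14.84 in clozapine arrays against 14.29 to 14.95 with a median of 14.70 in haloperidol arrays. The difference was 0.12 ± 0.05 (95% interval 0.02 to 0.22, adjusted p = 0.227), with 23 of 27 clozapine arrays above the haloperidol mean and 0.10, 0.13 and 0.18 in the runs. The adaptor Napb had the fifth smallest p between the drugs, at -0.06 ± 0.03 (adjusted p = 0.360). Single dose levels against vehicle gave 0 members at the adjusted threshold. The share of all probe sets there was 0%, 0.0215% and 0.00537% from low to high clozapine, and 0%, 0.00537% and 0.0268% from low to high haloperidol. At an unadjusted p under 0.05 the levels of clozapine gave 0, 0 and 1 member (Bin1), beside 2.72%, 4.06% and 3.87% of all probe sets. Those of haloperidol gave 1, 1 and 0 members (Cplx2 at low and at medium), beside 4.25%, 4.69% and 7.75%.

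Other genes of the presynaptic terminal were read from a fixed list of 58, of which 50 had a probe set and 47 or 48 were tested. None passed the adjusted threshold in any comparison. At an unadjusted p under 0.05 there were 3 (6.38%) for lesion, 3 (6.38%) for TTX, 2 (4.17%) for clozapine and 1 (2.08%) for haloperidol. The shares of all probe sets were 7.81%, 4.63%, 3.81% and 6.73% in the same order. Clozapine against haloperidol gave 8 (16.7%) beside 15.2% of all probe sets. In lesion the smallest p-values belonged to Cadps, a priming factor for dense-core vesicles (-0.13 ± 0.05, adjusted p = 0.588), and Slc32a1, the vesicular GABA transporter (0.16 ± 0.07, adjusted p = 0.621). In TTX they belonged to Nrxn3, a presynaptic adhesion molecule (0.22 ± 0.08), and Synpr, synaptoporin (0.23 ± 0.08), both with an adjusted p of 0.999. Between the drugs they belonged to the vesicular glutamate transporter Slc17a6 (0.20 ± 0.07, adjusted p = 0.112) and the priming factor Unc13b (0.19 ± 0.07, adjusted p = 0.160). Unc13b (0.23 ± 0.10) and the RIM-binding protein Rimbp2 (0.11 ± 0.06) led for clozapine, and Rimbp2 (0.12 ± 0.06) and the proton pump subunit Atp6v0a1 (0.23 ± 0.13) for haloperidol. For the lesion difference minus the TTX difference, Syt3, a plasma membrane synaptotagmin, stood at -0.26 ± 0.10 (adjusted p = 0.710) and Cadps at -0.16 ± 0.07.

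Several genes had a second probe set, which gives a further reading of the same samples. The 2 brightest probe sets of Syn1 agreed across arrays once group means were removed (r of 0.75 to 0.90 over the 3 experiments), as did those of Rab3a (0.62 to 0.90). Those of Syt4 did not, with r of -0.37 in lesion, -0.14 in TTX and -0.35 in neuroleptic arrays, although their mean signals were close (20026.5 and 19983.9). The second Syt4 probe set gave -0.02 ± 0.08 for haloperidol, beside 0.13 ± 0.07 in the brighter one, and -0.10 ± 0.06 for lesion, beside 0.02 ± 0.12. Of 17 further probe sets, 6 had the opposite sign to the brightest one in lesion, 7 in TTX, 10 in clozapine, 7 in haloperidol and 4 in clozapine against haloperidol. The second Pclo probe set gave 0.22 ± 0.08 for TTX (adjusted p = 0.999), beside -0.03 ± 0.10 in the brighter one. The second Sh3gl2 probe set gave -0.29 ± 0.12 for haloperidol (adjusted p = 0.646), beside -0.04 ± 0.06. Over all 47 tested probe sets of the members, 0 passed the adjusted threshold in any comparison.

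The members also varied together within groups. After group means were removed, the mean correlation over 496 pairs of members was 0.174 across 22 lesion-experiment arrays, 0.127 across 20 TTX-experiment arrays and 0.145 across 63 neuroleptic arrays. Over all tested probe sets it was 0.00082, 0.00138 and 0.0015. Quantile normalisation gives every array the same distribution, which holds this background near 0. It therefore does not show whether other genes of like intensity varied together as much. These are descriptions, without a test: the points are arrays, and genes on 1 array share its RNA, its hybridisation and its scaling. Of the 496 pairs, 203 were positive and 61 negative in all 3 experiments, and 17 exceeded 0.5 in each. The same counts over pairs of all tested probe sets are not given here, so these have no background beside them.

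Syn1 and Dnm1 were the pair with the highest minimum over the experiments, with r of 0.78 in lesion, 0.78 in TTX and 0.88 in neuroleptic arrays. Syp and the synaptotagmin Syt5 gave 0.71, 0.69 and 0.85, and Syt4 and Sv2b 0.75, 0.70 and 0.65. These values are for 1 probe set per gene. The second Syt4 probe set ran against the one used, with r of -0.37, -0.14 and -0.35. The next brightest Sv2b probe set gave r of 0.82, 0.56 and 0.11 with the one used in the 3 experiments. Cplx1 and the adaptor Napb ran opposite to each other in all 3, at -0.71, -0.55 and -0.50. Napa and Napb, which encode adaptors with the same role, gave -0.61, -0.15 and -0.73. Cplx2 and Rims1, whose point estimates were negative in lesion and positive in haloperidol, were nearly unrelated to each other array by array, at -0.05, 0.14 and 0.15.

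Part of this rested on single arrays in the lesion experiment. Without lesion replicate 7 and sham replicate 9, whose mean correlation with the other arrays of the experiment was low, the mean over pairs was 0.0746, Syn1 with Dnm1 gave 0.27 and Syt4 with Sv2b 0.25, while Syp with Syt5 gave 0.57 and Cplx1 with Napb -0.68. In the neuroleptic arrays, leaving out the 2 arrays of low correlation gave a mean of 0.137 and kept Syn1 with Dnm1 at 0.88. Within the 3 neuroleptic runs taken alone, Syn1 with Dnm1 gave 0.93, 0.91 and 0.77, Syp with Syt5 0.88, 0.63 and 0.45, and Cplx1 with Napb -0.81, -0.51 and -0.67. Within the 2 TTX runs Syn1 with Dnm1 gave 0.84 and 0.76, and within the 2 lesion runs 0.10 and 0.87. Syt4 with Sv2b gave 0.00, 0.64 and 0.70 in the neuroleptic runs, so this pair was near 0 in the first, and the lesion pair of Syn1 and Dnm1 was strong in 1 run only.

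**Figure D3:**
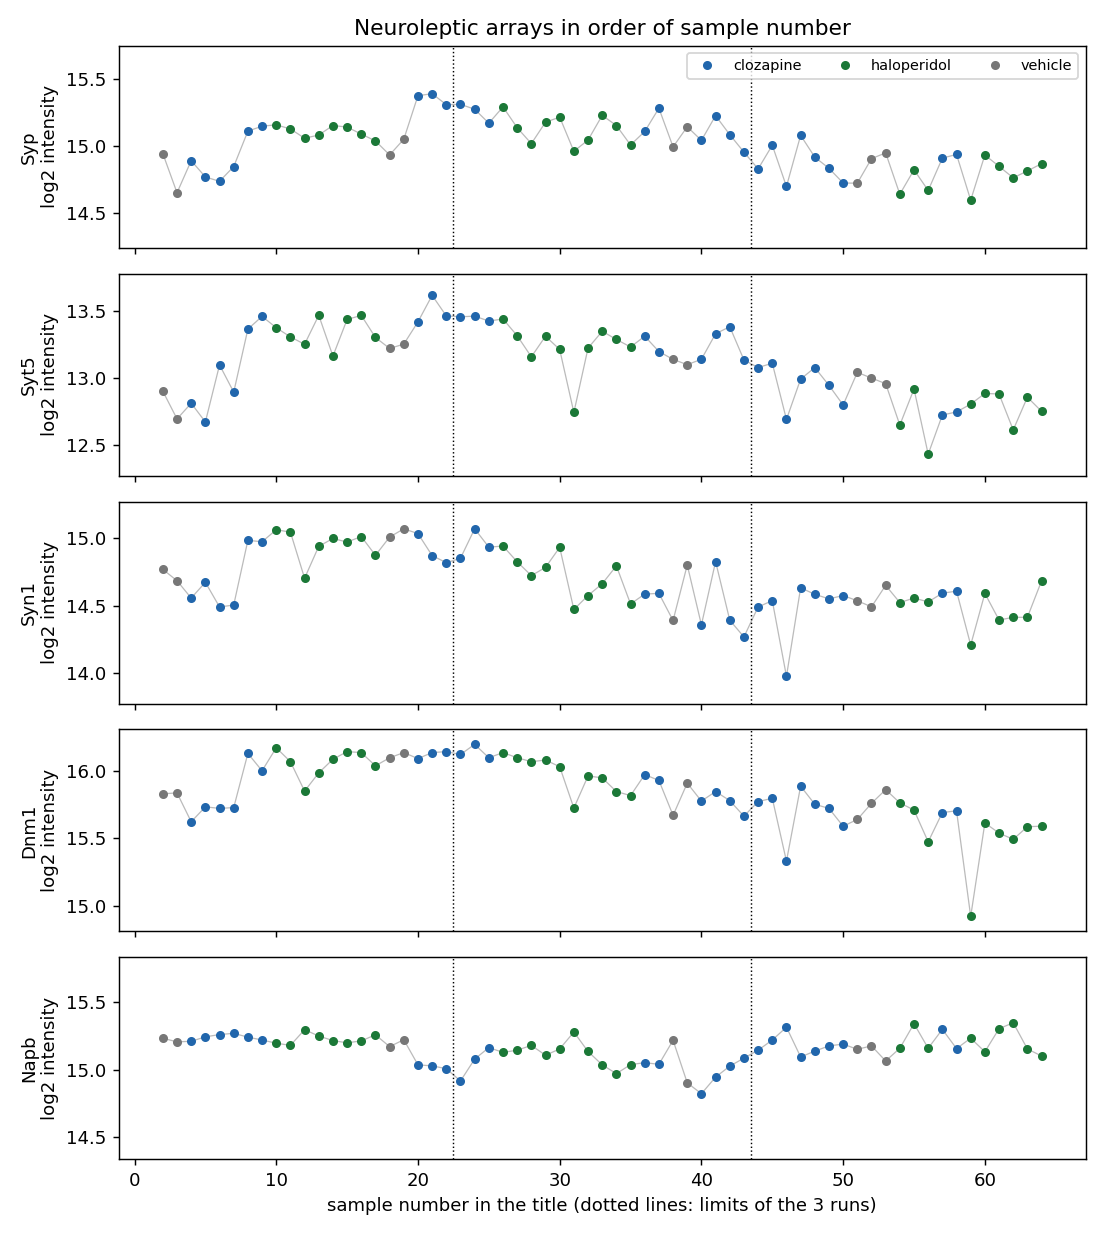
Log2 intensity of Syp, Syt5, Syn1, Dnm1 and Napb on 63 neuroleptic arrays in order of the sample number in the title, coloured by drug. Dotted lines mark the limits of 3 runs of equal size, cut here by sample number. Syp, Syt5, Syn1 and Dnm1 drift together across sample numbers in all colours, and neighbouring arrays resemble each other.

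The sample number in the title moved with these levels. In the neuroleptic arrays, consecutive sample numbers differed by 0.125 for Dnm1 and 0.142 for Syn1 in group-centred log2 intensity, beside 0.258 and 0.263 for all pairs of arrays. Consecutive arrays differed less than all pairs for 31 of 32 members there (median ratio 0.694), for 27 in TTX (0.748) and for 26 in lesion (0.900). Consecutive numbers belonged to the same group in 34 of 62 neuroleptic pairs, 14 of 19 TTX pairs and 14 of 21 lesion pairs, and what the numbers stand for is not given in the sources used here. Each run of numbers held every group of its experiment, and the part of this drift in the differences above was not tested beyond the within-run values and the fit with the run as a term.

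The drift was not particular to synaptic genes. The first principal component of all tested probe sets took 17.0% of the variance in lesion, 22.9% in TTX and 23.8% in neuroleptic arrays. In the neuroleptic arrays its mean score was -0.02, 1.03 and -1.003 in the 3 runs. The median member correlated with it at 0.46, 0.50 and 0.39 in the 3 experiments, beside -0.03, 0.07 and 0.05 over all probe sets, with the sign of the component set by the members. More than 0.5 was reached by 16, 16 and 11 of 32 members, beside 12.9%, 19.1% and 17.4% of all probe sets. Under -0.5 lay 1, 3 and 2 members, beside 11.7%, 15.8% and 16.3% of all probe sets. The upper count favours the members, because they set the sign of the component. Bsn, Napa, Dnm1 and Syp were among the members that lay along it in all 3, and Rims2 lay against it at -0.19, -0.82 and -0.83. The 8 neuron markers lay on both sides of it: 4 of 8 were positive in lesion (-0.64 to 0.58), 3 in TTX (-0.93 to 0.72) and 3 in neuroleptic arrays (-0.78 to 0.75), with medians of -0.08, -0.38 and -0.34.

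**Figure D4:**
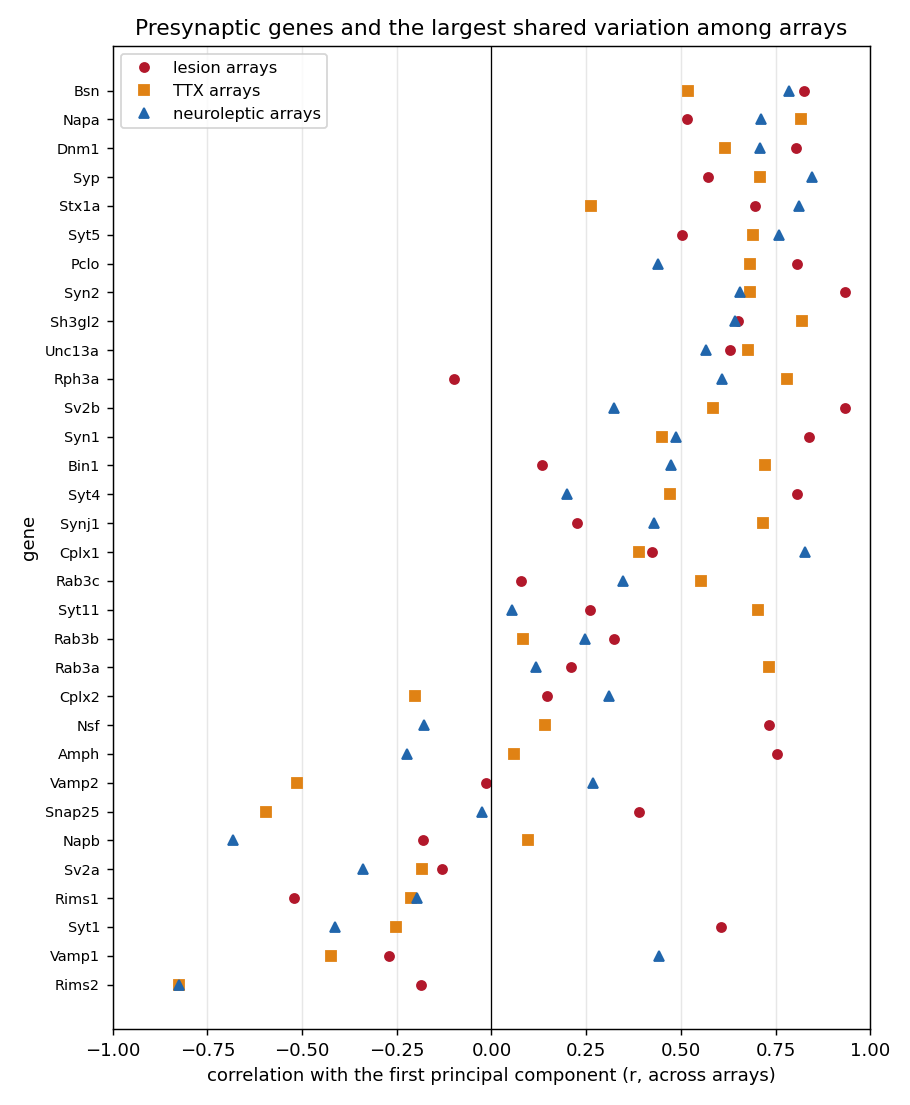
Correlation of each tested presynaptic gene with the first principal component across arrays in the lesion (circles), TTX (squares) and neuroleptic (triangles) experiments, after removal of group means. Most genes lie to the right of 0 in all 3, while Sv2a, Rims1 and Rims2 lie to the left in all 3.

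Marker genes of the cell types that frontal cortex RNA could hold were read beside these results. Of 41 markers with a probe set, not all passed the intensity filter in every experiment. None of those tested passed the adjusted threshold in any comparison. In lesion 5 of 6 measured microglia, 3 of 4 meninges and choroid plexus and 3 of 5 striatal markers were tested. No list held a gene with a mean intensity under 100 in any group. The summed intensity of 8 neuron markers, Eno2 and Map2 among them, had medians of 233159 in lesion and 241565 in sham arrays, and of 243509 in TTX and 244507 in their sham arrays. In lesion the 3 tested striatal markers differed in sign: Penk was at 0.39 ± 0.11 (limma adjusted p = 0.506), Rgs9 at 0.12 ± 0.16 and Ppp1r1b at -0.09 ± 0.09. Negative signs were found for 7 of 8 neuron markers (median -0.07), all 5 oligodendrocyte markers (median -0.10) and 4 of 5 endothelium markers (median -0.12). Of 5 tested microglia markers 4 were positive (median 0.07), and of 6 astrocyte markers 2 were positive and 4 negative. Such signs were not particular to lesion. In TTX all 5 oligodendrocyte markers were negative (median -0.14) and 5 of 8 neuron markers were positive. In medium clozapine all 8 neuron markers were negative (median -0.08). Marker signs without lesion replicate 7 are not given here. The part of these in the members' values was not tested. The summed intensity of the blood genes Hbb and Alas2 had a median of 65913 (38320 to 97027) at high clozapine against 38989 (32704 to 48920) in vehicle arrays. Its median was 39826 and 51656 at low and medium clozapine, and 39406, 45062 and 45282 from low to high haloperidol. At low clozapine both genes had a negative difference from vehicle (median -0.33). Fewer cells of a type and less RNA per cell cannot be told apart in RNA of whole tissue.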

How the data were processed

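The authors deposited linear intensity values for 31099 probe sets; software, background correction and summarisation are not stated in the labels used here. The deposited values had been scaled: with 2% trimmed from both ends, array means fell between 2500.6 and 2500.8. No detection calls were used, 6.04% of values lay under the floor, and the number of arrays limits the precision. No 2 arrays held identical values (highest correlation 0.9687).

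After removal of 57 control probe sets, quantile normalisation was run inside each experiment, a floor of 32 was set and log2 was taken. The 60% of probe sets with the highest mean were tested with limma 3.58.1 (lmFit and eBayes, R 4.3.3), 1 mean per group, adjusted by Benjamini-Hochberg over all of them and called at 0.05. All 7 neuroleptic groups shared a fit, and each drug's value is the mean of its 3 levels. The lesion difference minus the TTX difference came from 1 fit over both experiments. On simulated data with 18625 probe sets, 30% and 70% of changes of 0.25 and 0.5 were recovered for lesion, 36% and 86% for TTX and 38% and 90% for haloperidol. The simulated noise was normal and independent between probe sets, and normalisation was not simulated. It lacked the shared variation, drift and outlying arrays of the real data, so these shares are not the power of this design. Gene names came from the platform annotation. Groups came from the labels; replicate numbers follow accession order. Where no member was called, the 5 with the smallest p were described in full, and the 2 smallest among the other presynaptic genes. A run is a stretch of consecutive sample numbers, cut here into equal parts: 2 in each surgical experiment and 3 in the neuroleptic one. No label or gap in the numbers marks the limits, so the runs are not known batches. The alternatives were the values as deposited, floors of 16 and 64, no filter, a filter at 40%, the mean of all probe sets of a gene, the run as a term, array weights, and leaving out arrays whose mean correlation lay over 3 median absolute deviations under the median. Leaving out each array in turn (lesion and neuroleptic experiments) was added after the values were seen. The members and lists were chosen with earlier results of these data known.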

Additional observations from a re-analysis of the deposited data

Results flagged for a closer look

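Of 153 group values over 17 members examined, 7 (4.58%) held an array far from the rest of its group by Dixon's test, and chance gives about 1 in 20. The 153 values do not take in all 11 groups for every one of these members. No flag fell in the lesion or TTX group, of 12 and 11 arrays, and whether these 2 groups were screened is not given here. The lack of a flag therefore does not mean that they held no outlying array. Values are log2 intensities. Synj1 had its lowest array at 14.31 in medium clozapine (replicate 1), where the others ran from 14.70 to 14.99, and at 14.20 in high clozapine (replicate 2), where the others ran from 14.69 to 15.05. Vamp1 had its highest array at 14.43 in low clozapine (replicate 4), above the others at 14.00 to 14.14. Napb had its highest at 15.34 in high haloperidol (replicate 6), above 15.13 to 15.23. Bin1 had its lowest at 12.92 in vehicle (replicate 8), below 13.20 to 13.39. In the lesion sham group Rab3c had its lowest array at 8.82 (replicate 9), below 9.66 to 10.16, and Syt11 at 9.92 (replicate 7), below 10.78 to 11.56.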

How the results depend on the processing

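Among the 9 alternatives chosen first, the count of members past the adjusted threshold changed in 1 case: for clozapine against haloperidol it was 1 (Cplx2, adjusted p = 0.0254) with the run of sample numbers as a term, against 0 otherwise. Over the alternatives the adjusted p of that Cplx2 difference ran from 0.0254 to 0.111, and the cause was not tested. No difference of a named member changed sign under any of these alternatives. Members at an unadjusted p under 0.05 moved by over 1.5 times in 9 cases, among them 7 with the run as a term and 5 with array weights for clozapine against haloperidol, where 3 were reported. No paired analysis was possible because the labels carry no replicate numbers that pair arrays across groups. Leaving out 1 array at a time, an alternative chosen after seeing the data, gave 0 members in the lesion, clozapine and haloperidol comparisons and 0 to 1 in clozapine against haloperidol (Cplx2, in 5 of 54 cases); TTX was not run. Values near the floor, as for Syt2, Syn3 and Sv2c, limit what can be said of those genes.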
